A study of Homo sapiens with 6 samples.

Results

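The enzymes that build and desaturate fatty acids were followed in MV4-11 cells, a human acute myeloid leukemia (AML) cell line, after treatment with WNK463, a small-molecule inhibitor of the WNK family of kinases. The 10 genes, SCD, FASN, ACACA, ACLY, ELOVL5, ELOVL6, FADS1, FADS2, ACSL3 and ACSS2, were taken by symbol from a table of 20348 genes, and all 10 were among the 11973 genes with enough reads to be tested. They were chosen by name with the measured counts of these same 6 samples already known. Their differences between the groups, and whether each passed the test run over all tested genes, are therefore given as a description. No test was made of the 10 genes as a set. The 3 Control samples were labelled as untreated, and the 3 WNK463 samples received 1 μM WNK463 for 48 h. The cells of both groups carried no other labelled treatment or genetic change, a vehicle for the Control was not named, and no label says whether the samples of a group came from separate cultures, so the spread between them may be technical. In a bulk measurement of 1 line, fewer cells with a transcript and less of it per cell cannot be told apart.

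Cytosolic acetyl-CoA is the building block of fatty acids. ATP citrate lyase (ACLY) makes it from citrate and ACSS2 makes it from acetate. Acetyl-CoA carboxylase (ACACA) turns it into malonyl-CoA, fatty acid synthase (FASN) joins these units into a saturated chain, elongases such as ELOVL5 and ELOVL6 lengthen chains, and the desaturases SCD, FADS1 and FADS2 place double bonds in them. ACSL3 couples free fatty acids to coenzyme A for use in lipids. Many of these genes are classical targets of the sterol regulatory element-binding proteins (SREBPs), and leukemia cells are known to draw on the pathway for membranes.

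Total estimated counts per sample ran from 14915745 to 17411780, and the counts of the 10 genes in single samples from 80 to 18911. Library size factors (TMM) were 0.944 to 0.951 in the Control samples and 1.05 to 1.06 in the WNK463 samples, so scaling by total counts instead raised every log2 fold change, the median of all tested genes by 0.15. As a check of the cells, 10 genes listed as myeloid leukemia markers were all tested. They summed to 1242 to 1301 CPM (counts scaled to a common library size) in the Control and 1465 to 1488 CPM in the WNK463 samples. This sum does not by itself show AML identity. Singly, 6 of them were higher and 3 lower at an edgeR adjusted p under 0.05. ITGAM (log2 fold change 1.25), PTPRC (1.20), CSF1R (0.97) and HOXA9 (0.72) were among the higher, CD33 (-0.38) and FLT3 (-0.20) among the lower. CD33 kept its call in 13 of 14 alternative ways of processing the data. FLT3 kept its call in 10 of 14, where its log2 fold change ran from -0.25 to -0.01. Of 12 markers of other cell types only KRT18 was tested, and their sum was 10.2 to 10.6 CPM in the Control and 7.33 to 8.17 CPM with WNK463. Of 10 markers of mature macrophages 5 were tested, and 4 of them (C1QA, C1QB, C1QC and APOE) were higher with WNK463. The other tested marker, MARCO, was at a log2 fold change of -0.27 and was not called. C1QA alone had a mean of 0.985 CPM in the Control and 13.1 CPM with WNK463. The sum of these 10 markers was 2.38 to 3.36 CPM in the Control and 19.9 to 20.8 CPM with WNK463, while FABP4 was at 0 in all 6 samples and CD163 at 0 in all but 1 WNK463 sample. The part of all these markers in the results that follow was not tested.

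Upstream stretches of 3 of the genes are shown because they hold the letters described next and their genes differed in direction: SCD and ACLY were lower with WNK463 and ACSS2 was higher. The sequences are RefSeq promoter windows of GRCh38.p14, read 5′ to 3′ on the gene's strand and limited to the bases that no annotated exon covers. Capitals mark CCAAT or its reverse complement ATTGG, the letters that nuclear factor Y (NF-Y) binds, and NF-Y is a known partner of SREBPs at lipogenic promoters. SCD lies on the plus strand (chr10:100346983-100347123), ACLY on the minus strand (chr17:41919023-41919272) and ACSS2 on the plus strand (chr20:34874739-34874941).
SCD: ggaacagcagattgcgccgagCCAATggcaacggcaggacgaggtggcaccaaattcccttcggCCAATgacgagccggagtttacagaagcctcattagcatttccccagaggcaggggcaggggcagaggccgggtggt
ACLY: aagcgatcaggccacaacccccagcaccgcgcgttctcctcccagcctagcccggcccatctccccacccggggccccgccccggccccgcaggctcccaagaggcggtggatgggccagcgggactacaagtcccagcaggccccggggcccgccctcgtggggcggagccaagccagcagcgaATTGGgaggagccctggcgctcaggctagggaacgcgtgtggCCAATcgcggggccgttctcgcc
ACSS2: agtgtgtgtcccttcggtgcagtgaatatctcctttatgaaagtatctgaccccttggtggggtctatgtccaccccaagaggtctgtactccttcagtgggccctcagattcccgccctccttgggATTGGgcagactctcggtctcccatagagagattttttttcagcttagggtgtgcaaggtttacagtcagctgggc

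The matches began 229 and 186 bases before the RefSeq start of SCD and 123 bases before 1 of the RefSeq starts of ACSS2. For ACLY they began 65 and 23 bases before 1 RefSeq start and 136 and 94 bases before another. RefSeq windows of 250 bases before a start matched 9 of the 10 genes, with none for FASN. There were 14 windows in all, since some genes have several starts. Windows of 1 gene can overlap and are not independent. CCAAT was present on either strand in 8 of the 14 windows (57.1%), against 32.0% of 35116 windows of all genes. The 6 genes that held it were SCD, ACLY, ACSS2, ACACA, ACSL3 and ELOVL5, and 1 of the windows of ACSS2 and 1 of those of ACACA lacked it. These counts use the full windows, with bases covered by an annotated exon included. For ACSL3 and ELOVL5 the bases free of annotated exons (148 and 21) held no CCAAT on either strand. No window of FADS1, FADS2 or ELOVL6 held it, so genes with and without the letters were found among those lower and those higher with WNK463. The GC box GGGCGG, the letters bound by Sp1, was present in 11 of 14 (78.6%) against 42.6%. The E-box CACGTG was found in 1 of 14 windows (7.14%), that of ELOVL5, against 6.34%, and the SREBP element TCACNCCAC in 0 of 14 against 0.883%. Each motif was searched on both strands, matches of different motifs shared no bases in these windows, and a match describes the letters in a window and not a bound site.

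In the comparison of Control and WNK463, 8 of the 10 genes were lower at an adjusted p under 0.05 (edgeR) and 2 were higher. Over all tested genes 35.3% were lower and 35.5% higher by the same rule. With a log2 fold change of at least 1 in size as well, SCD, FADS2, FADS1 and FASN were lower and none of the 10 was higher, where all tested genes gave 5.55% lower and 9.62% higher. In 8 genes all WNK463 samples lay under all Control samples in CPM and in 2 they lay over them, against 36.4% and 37.1% of all tested genes. Because the genes were chosen with these values known, nothing is read from these counts. The median log2 fold change of the 10 genes was -0.79, and that of all tested genes was 0.02.

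**Figure D1:**
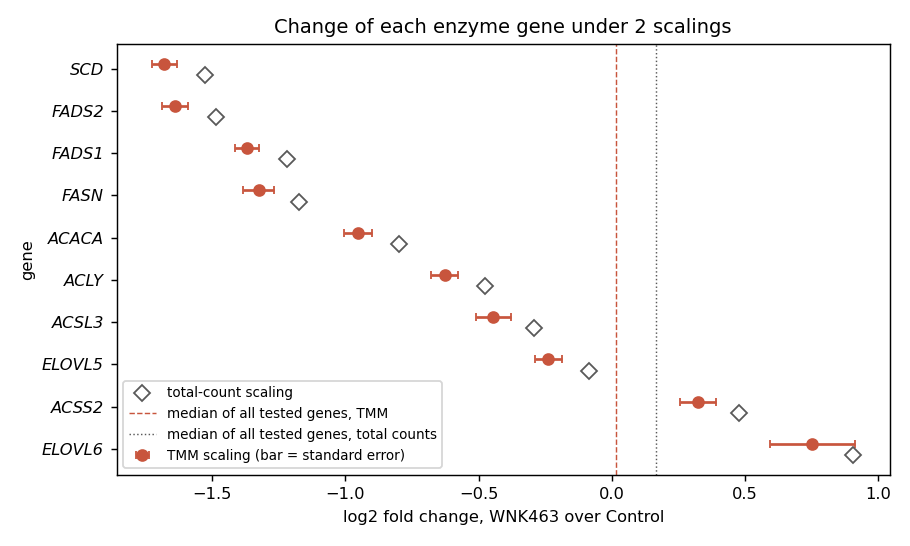
Log2 fold change of each of the 10 genes (WNK463 over Control, edgeR), as filled points with TMM scaling and bars for the standard error, and as open diamonds with scaling by total counts. Vertical lines mark the median of all tested genes under each scaling. With TMM, SCD at -1.68 and FADS2 at -1.64 lie at the low end, ELOVL5 at -0.24 and ACSS2 at 0.32 lie closest to 0, and ELOVL6 at 0.75 lies at the high end with the widest error bar.

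The desaturases and FASN had the largest differences. SCD (ENSG00000099194, plus strand of chr10:100347124-100364834 in GRCh38) encodes the stearoyl-CoA desaturase, which makes monounsaturated fatty acids. Its level was 822, 833 and 807 CPM in the Control samples and 268, 243 and 258 CPM in the WNK463 samples. The WNK463 samples were at 0.312 of the Control mean by the fitted fold, a log2 fold change of -1.68 (SE 0.05, n = 3 per group), and the groups lay far apart. Of all tested genes, 1.44% had a lower log2 fold change. Nothing is read from this share, because SCD was chosen with these values known.

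FADS2 (ENSG00000134824, plus strand of chr11:61792980-61867354) encodes the desaturase that takes the first step from dietary polyunsaturated fatty acids. It was measured at 459, 459 and 420 CPM in the Control samples and at 146, 139 and 145 CPM with WNK463. Its log2 fold change was -1.64 (SE 0.05), with no overlap between the groups. FADS1 (ENSG00000149485, minus strand of chr11:61799625-61829318) encodes the desaturase that acts later in the same path. FADS1 counts gave 328, 327 and 327 CPM in the Control samples and 129, 125 and 127 CPM with WNK463. Its log2 fold change was -1.37 (SE 0.05), and its replicates were the closest of the 10 genes, with an SD of 0.744 CPM in the Control. Both genes are annotated on opposite strands and share 490 exon bases, 4.79% of those of FADS1 and 4.44% of those of FADS2. How the libraries keep strand was not stated, so reads from the shared bases cannot be told apart.

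The enzymes of chain building were also lower. FASN lay within the errors of FADS1, and without Control sample 3 it passed FADS1 (-1.39 against -1.38 on the log2 scale). FASN (ENSG00000169710, minus strand of chr17:82078333-82098332) had the highest CPM of the 10 genes, a scale that also reflects transcript length. It was measured at 1151, 1075 and 996 CPM in the Control samples and at 447, 397 and 442 CPM with WNK463. The log2 fold change was -1.33 (SE 0.06), and the Control samples spread by 77.6 CPM (SD) without reaching the WNK463 samples. ACACA (ENSG00000278540, minus strand of chr17:37084988-37406818), which makes the malonyl-CoA that FASN uses, was measured at 215, 202 and 195 CPM in the Control samples and at 110, 101 and 105 CPM with WNK463. Its log2 fold change was -0.95 (SE 0.05), so that ACACA lay just outside the limit of 1 and FASN at -1.33 was the nearest gene inside it.

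The genes that supply acetyl-CoA differed in opposite directions. ACLY (ENSG00000131473, minus strand of chr17:41866908-41930542) was measured at 642, 596 and 587 CPM in the Control samples and at 405, 372 and 405 CPM with WNK463. This was a log2 fold change of -0.63 (SE 0.05). ACSS2 (ENSG00000131069, plus strand of chr20:34872146-34927962) was measured at 49.1, 45.6 and 42.0 CPM in the Control samples and at 56.1, 58.4 and 56.6 CPM with WNK463. For ACSS2 the log2 fold change was 0.32 (SE 0.07). All WNK463 samples were below the Control samples for the citrate enzyme and above them for the acetate enzyme. The ratio of their TPM values (transcript abundances that the authors deposited, corrected for length) was 8.83 ± 0.523 (SD, n = 3) in the Control and 4.45 ± 0.290 with WNK463.

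The acyl-CoA synthetase ACSL3 and the elongase ELOVL5 were lower by less than ACLY, and the elongase ELOVL6 was higher. ACSL3 (ENSG00000123983, plus strand of chr2:222860934-222944639) was measured at 93.6, 107 and 103 CPM in the Control samples and at 71.4, 80.8 and 71.1 CPM with WNK463, with a log2 fold change of -0.44 (SE 0.06). ELOVL5 (ENSG00000012660, minus strand of chr6:53267398-53349179), the elongase of polyunsaturated fatty acids, was measured at 149, 150 and 159 CPM in the Control samples and at 134, 127 and 128 CPM with WNK463. The log2 fold change of ELOVL5 was -0.24 (SE 0.05), but it was -0.09 with scaling by total counts, where it was not called. In TPM the groups of ELOVL5 overlapped, while the other 9 genes kept theirs apart. ELOVL6 (ENSG00000170522, minus strand of chr4:110045846-110199199), the elongase of saturated and monounsaturated chains, was the least abundant. It was counted 84, 83 and 80 times in the Control samples and 155, 169 and 112 times with WNK463, or 5.11, 5.69 and 4.88 CPM against 9.36, 9.83 and 7.15 CPM. Its log2 fold change was 0.75 (SE 0.16), the least precise of the 10, and all WNK463 samples were above the Control samples.

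**Figure D2:**
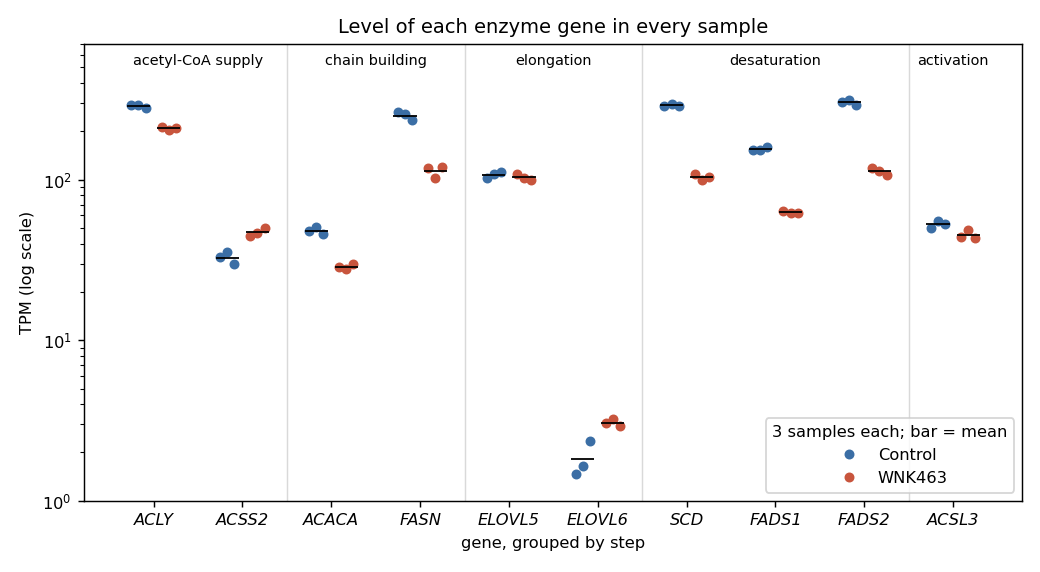
TPM of the 10 genes in every sample, on a log axis, with points for the 3 Control and the 3 WNK463 samples of each gene, bars for their mean, and the genes grouped by step. The groups of ELOVL5 overlap (102 to 111 TPM in the Control and 100 to 108 TPM with WNK463), those of SCD, FADS2, FADS1 and FASN lie far apart, and ELOVL6 lies below all other genes.

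Compared per transcript length, the order of the enzymes changed. In the Control samples FADS2 stood at 302 ± 10.6 TPM (SD, n = 3), SCD at 291 ± 5.83 and ACLY at 288 ± 7.02. The ranges of these neighbours over the samples overlapped, but FADS2 was above SCD and ACLY in each Control sample. FASN followed at 251 ± 15.7 TPM, FADS1 at 155 ± 3.39 and ELOVL5 at 107 ± 4.83. ACSL3 at 52.9 ± 2.65 and ACACA at 48.2 ± 2.52 TPM overlapped in range, with ACSL3 the higher in each Control sample. ACSS2 stood at 32.7 ± 2.68 and ELOVL6 at 1.83 ± 0.465 TPM. With WNK463 the citrate enzyme ACLY stood alone at the top, at 208 ± 3.83 TPM. FASN at 113 ± 9.09, FADS2 at 113 ± 5.75, SCD at 104 ± 4.62 and ELOVL5 at 103 ± 4.03 TPM formed a run in which each gene overlapped the next. FADS1 stood at 62.7 ± 0.835 TPM, ACSS2 at 47.0 ± 2.72 and ACSL3 at 45.2 ± 3.05 overlapped, ACACA stood at 28.7 ± 1.14 and ELOVL6 at 3.07 ± 0.162. Among the mean TPM of all tested genes, SCD went from rank 476 to rank 1699 and FADS2 from 453 to 1532, while ACLY went from 483 to 676 and ELOVL5 from 1568 to 1706.

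Together the 10 genes summed to 1534, 1562 and 1493 TPM in the Control samples and to 847, 810 and 828 TPM with WNK463, a ratio of the means of 0.542. The desaturases SCD, FADS1 and FADS2 made up 48.9% ± 0.407 (SD, n = 3) of that sum in the Control and 33.7% ± 0.664 with WNK463. The acetyl-CoA genes ACLY and ACSS2 made up 20.9% ± 0.177 and 30.8% ± 0.583, and the elongases 7.13% ± 0.443 and 12.9% ± 0.365. The chain builders ACACA and FASN held 19.5% ± 0.812 in the Control and 17.1% ± 0.971 with WNK463. A smaller total thus held relatively more transcripts of carbon supply and elongation and relatively fewer of desaturation.

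**Figure D3:**
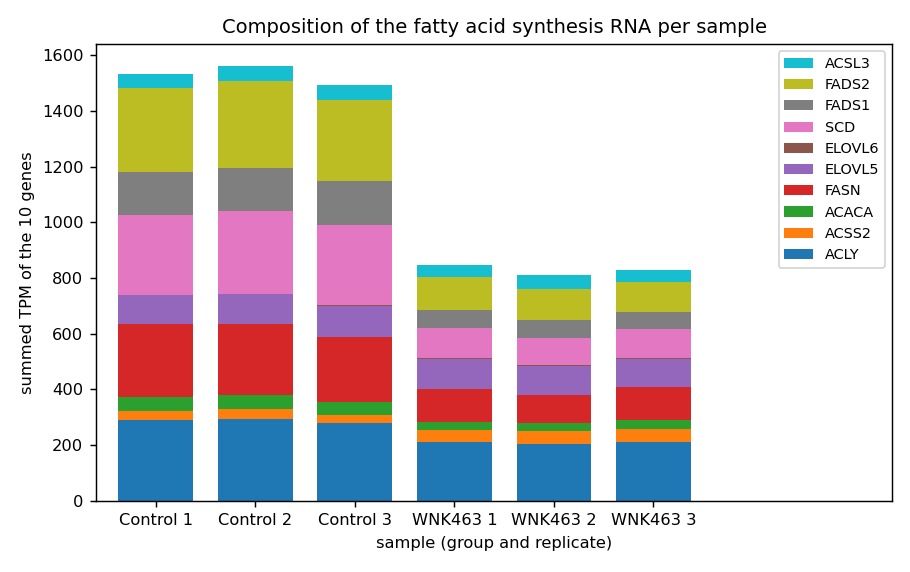
Stacked bars of the TPM of the 10 genes in each of the 3 Control and 3 WNK463 samples, 1 color per gene, with the bar height as their sum. On average ACLY goes from 18.8% to 25.2% of the height and ELOVL5 from 7.01% to 12.5%, while FADS2 goes from 19.8% to 13.6% and SCD from 19.0% to 12.5%.

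Ratios of TPM between neighbouring steps followed the same order. The ratio of ELOVL5 to FADS2, which act in the same polyunsaturated path, was 0.355 ± 0.0249 (SD, n = 3) in the Control and 0.918 ± 0.0164 with WNK463. The ratio of FASN to ACACA was 5.21 ± 0.272 and 3.94 ± 0.205, and that of SCD to FASN 1.16 ± 0.0703 and 0.920 ± 0.0470. FADS2 to FADS1 differed least, at 1.95 ± 0.106 and 1.80 ± 0.0742. Its groups overlapped, with 1.83 to 2.03 in the Control and 1.72 to 1.86 with WNK463. These ratios cancel the library scaling, since both genes come from 1 sample.

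The tested genes whose pattern over the 6 samples was most like that of SCD were found by the Euclidean distance of log2 CPM, centred on each gene's mean. DTL was nearest (distance 0.1003), at 129 ± 1.52 CPM (SD, n = 3) in the Control and 42.3 ± 2.96 CPM with WNK463. FANCA was next (0.1007), at 108 ± 4.35 and 34.3 ± 0.986 CPM, and FADS2 was the third (0.105). DTL encodes a substrate receptor of a ubiquitin ligase and FANCA a DNA repair protein. Among the enzymes, FADS1 ranked 106 and FASN 149 by this distance, followed by ACACA at 557 and ACLY at 1446. Samples of a group lay close together, so this distance mostly reflects the size of the log2 fold change. That was -1.61 for DTL, -1.66 for FANCA and -1.64 for FADS2, against -1.68 for SCD. Shared regulation was not tested.

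FADS1 and FADS2 lie in a cluster with FADS3, and the other genes starting within 200 kb of the FADS2 start were listed after the data had been seen. Here that is the start of the annotated gene span (chr11:61792980), not a RefSeq start as used for the promoter windows. Of the 10 genes in this window, FADS1 and FADS2 included, the 8 others did not share a direction. FEN1, a DNA replication nuclease, was lower, from 150 ± 5.58 to 53.0 ± 2.88 CPM (log2 fold change -1.50, SE 0.06, edgeR adjusted p = 2.7e-13). RAB3IL1 was lower from a mean of 2.29 to 0.343 CPM (-2.70, SE 0.39, edgeR adjusted p = 6.4e-06). FADS3, a desaturase paralog, was higher, from 10.1 ± 1.02 to 17.6 ± 1.31 CPM (0.80, SE 0.11, edgeR adjusted p = 4.0e-06). FTH1, the ferritin heavy chain, was higher from 585 to 1230 CPM (1.07, SE 0.05, edgeR adjusted p = 2.5e-12). MYRF at -0.39, DAGLA at -0.35, BEST1 at -0.26 and TMEM258 at -0.21 on the log2 scale were not called. FADS2 shares 49 exon bases with FEN1, 0.444% of its own.

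**Figure D4:**
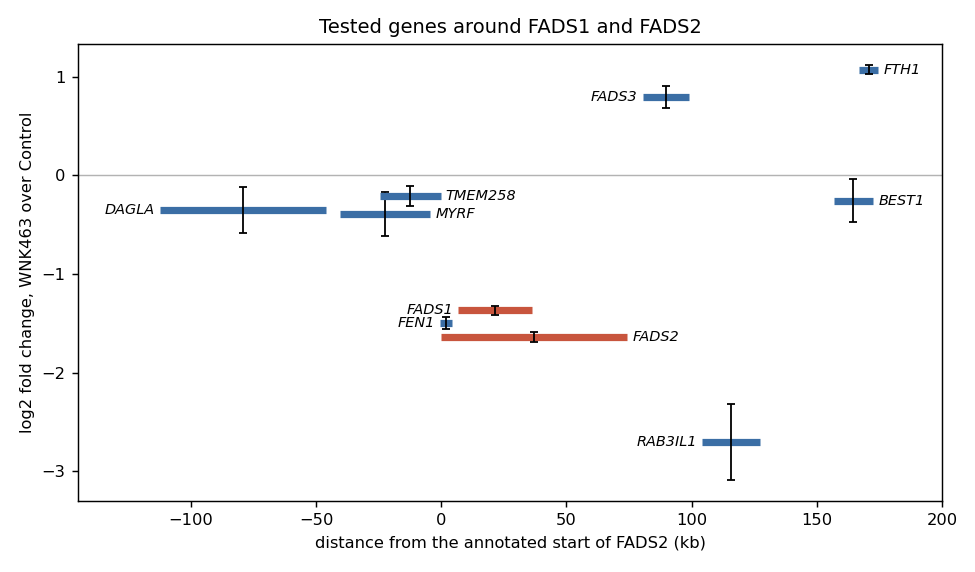
Log2 fold change (WNK463 over Control, vertical bars for the standard error) of the genes that start within 200 kb of the FADS2 start, each drawn as a horizontal bar over its annotated span, in kb from that start. FADS2, FADS1 and FEN1 lie between -1.64 and -1.37, FADS3 lies at 0.80 FTH1 at 1.07 and RAB3IL1 at -2.70.

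Other genes of fatty acid and lipid metabolism, cholesterol synthesis included, were counted in lists chosen with earlier results of these data known. Over the 12 lists, 148 of 175 genes were tested, 66 were lower and 45 higher at an edgeR adjusted p under 0.05, and their median log2 fold change was -0.07 against 0.02 for all tested genes. Over all tested genes 35.3% were lower and 35.5% higher, and the counts of each list below stand beside these shares as a description. With scaling by total counts 57 were lower and 64 higher, so the balance of these lists depends on the scaling. It also depends on the cholesterol list, which with TMM held 20 of the lower genes and 0 of the higher.

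The enzymes that share the elongation cycle with ELOVL5 and ELOVL6 did not move one way: 3 of 8 tested were lower, 3 higher and 2 not called. TECR, the reductase that closes each cycle, was lower, from 316 to 212 CPM (log2 fold change -0.57, edgeR adjusted p = 7.7e-09). HACD2, a dehydratase of the cycle, was higher, from 49.8 to 119 CPM (1.26, edgeR adjusted p = 3.0e-12). HACD4 at -0.81 and HACD3 at -0.50 were lower on the log2 scale. ELOVL1 at 0.24 and HSD17B12 at 0.19 were higher, and each lost its call when 1 library was left out (ELOVL1 without Control sample 3 or WNK463 sample 1, HSD17B12 without WNK463 sample 1 or 3), so that 1 gene of the list was higher without WNK463 sample 1.

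Of the other desaturases and genes listed as electron donors, 3 of 6 tested were lower and 2 higher. CYB5A and CYB5B, forms of cytochrome b5, were lower by log2 fold changes of -0.72 (edgeR adjusted p = 0.0045) and -0.41 (edgeR adjusted p = 5.5e-06). CYB5A, at a mean of 6.10 CPM in the Control and 3.68 CPM with WNK463, kept its call in 13 of 14 alternatives. CYB5R3 was lower at -0.23 and lost its call with scaling by total counts. FADS3 and CYB5R4 (0.42, edgeR adjusted p = 1.5e-05) were higher. SCD5, a second stearoyl-CoA desaturase, was below the count filter.

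Among the genes of carbon and NADPH supply, 3 of 7 tested were lower and 0 higher, but 2 were higher with scaling by total counts and 1 was higher in each limma fit of TPM, with at least 10 counts in every sample and without Control sample 2. SLC25A1, which exports citrate from mitochondria for ACLY, was lower, from 115 ± 9.28 to 63.8 ± 3.64 CPM (-0.85, edgeR adjusted p = 2.1e-09). MID1IP1, a protein that promotes polymerisation of acetyl-CoA carboxylase, was lower at -0.70 and AACS, an acetoacetyl-CoA synthetase, at -0.42. ACACB, the other acetyl-CoA carboxylase, was at -0.06 and was not called, and its sign turned with the scaling (0.09 by total counts).

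Of the other acyl-CoA synthetases, 7 of 11 tested were higher and 2 lower, with a median log2 fold change of 0.45. ACSM3 was higher, from 6.38 to 27.6 CPM (2.11, edgeR adjusted p = 2.1e-11), ACSF2 at 1.04 and SLC27A5 at 0.64. ACSL4, which favours polyunsaturated fatty acids, was higher, from 181 to 247 CPM (0.45, edgeR adjusted p = 3.8e-07). ACSL5 was lower, from 9.87 to 1.41 CPM (-2.79, edgeR adjusted p = 1.5e-09), and SLC27A2 at -0.75. ACSL1 was at -0.04 and was not called, and at 0.11 with scaling by total counts.

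**Figure D5:**
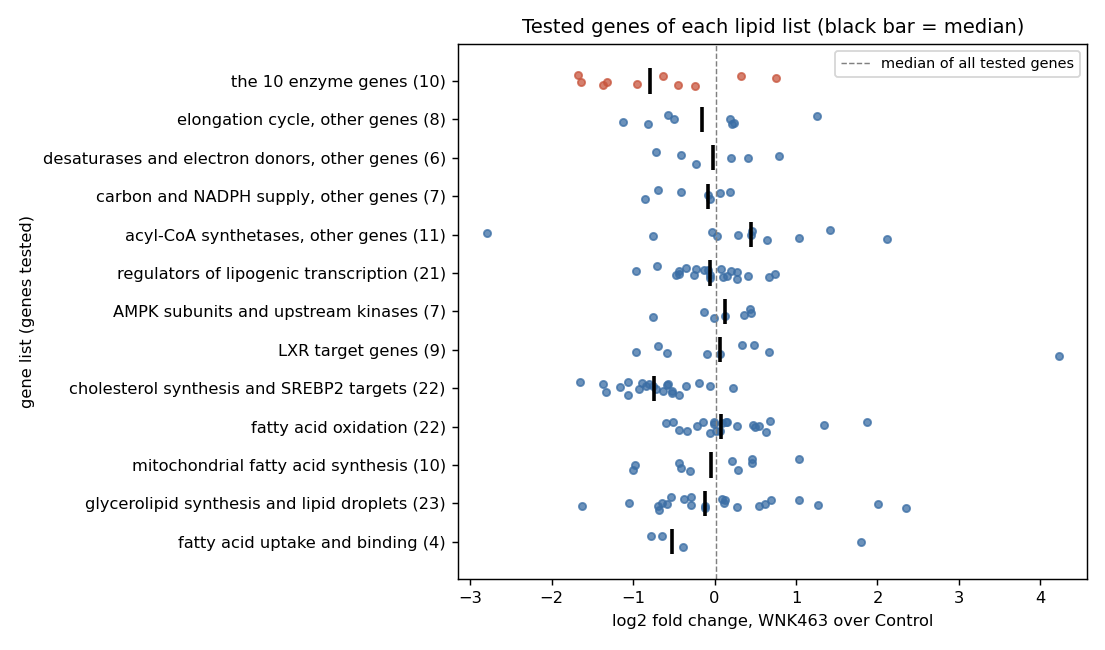
Log2 fold changes of single genes (points) in the 10 enzyme genes and in each list of other lipid genes, with the median of each as a black bar and that of all tested genes as a dashed line. The cholesterol list lies almost wholly below 0 with a median of -0.74, the acyl-CoA synthetases have a median of 0.45, and most other lists straddle 0.

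Of the regulators of lipogenic transcription, 8 of 21 tested were lower and 7 higher. SREBF1, which encodes the SREBP that drives fatty acid synthesis, was measured at 131, 122 and 107 CPM in the Control samples and at 61.5, 60.3 and 62.1 CPM with WNK463. Its log2 fold change was -0.97 (SE 0.07, edgeR adjusted p = 5.8e-10) and the groups did not overlap. SREBF2, which encodes the SREBP of sterol synthesis, was lower, from 535 ± 19.2 to 385 ± 8.84 CPM (-0.47, edgeR adjusted p = 3.7e-08). INSIG1, which retains SREBPs in the endoplasmic reticulum and is itself an SREBP target, was lower, from 333 ± 6.33 to 246 ± 9.93 CPM (-0.44, edgeR adjusted p = 1.7e-07). Its paralog INSIG2 was higher, from 11.3 to 18.9 CPM (0.74, edgeR adjusted p = 1.9e-05). NR1H3, which encodes the liver X receptor (LXR) alpha, was higher, from 6.30 to 9.99 CPM (0.66, edgeR adjusted p = 2.6e-04), and its partner RXRA was lower at -0.71. MLXIPL at -0.23 was not called.

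Of the cholesterol genes 20 of 22 tested were lower and 0 higher, with a median log2 fold change of -0.74. With scaling by total counts, in the limma fits of TPM with the filter on low values and without WNK463 sample 2, 1 was higher. DHCR7, a reductase of the last steps, was lower at -1.65 (edgeR adjusted p = 8.8e-11) and FDPS, a synthase of isoprenoid precursors, at -1.34 (edgeR adjusted p = 1.4e-11). SC5D at -0.06 and TM7SF2 at 0.23 were not called. Of 9 tested LXR targets, SREBF1 included, 3 were lower and 2 higher. MYLIP was lower at -0.69 (edgeR adjusted p = 1.8e-07) and ABCA1 at -0.58 (edgeR adjusted p = 0.0060), and APOE was counted 0, 2 and 0 times in the Control samples and 16, 18 and 12 times with WNK463.

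AMP-activated protein kinase (AMPK) is known to inhibit acetyl-CoA carboxylase. Of its 7 tested subunits and upstream kinases, PRKAB2 (0.45), PRKAA1 (0.44) and PRKAG2 (0.36) were higher on the log2 scale. The upstream kinase CAMKK2 was lower at -0.75 (edgeR adjusted p = 5.7e-09). STK11 was called lower at -0.13 but turned to 0.025 with scaling by total counts, so no direction is given for it. With scaling by total counts 5 genes of this list were higher and 1 was lower.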

How the data were processed

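Poly(A)-enriched RNA of 3 Control and 3 WNK463-treated MV4-11 samples was sequenced. The authors deposited estimated counts per gene as whole numbers, without normalization, and TPM values that sum to the same total in every sample. The submitters' processing notes name fastp, Bowtie2, HISAT2, StringTie, RSEM, DESeq2, edgeR and GRCh38, without roles, and strandedness and annotation release were not given in the sources used here. The log2 fold change and p-value columns the authors deposited hold their own comparison and were not used.

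Counts were tested in R 4.3.3 with edgeR 4.0.16 (quasi-likelihood test, TMM factors, low counts removed by filterByExpr defaults, no replicate block), with Benjamini-Hochberg adjustment over all 11973 tested genes. CPM use TMM-scaled library sizes. The standard error of a log2 fold change was taken as its size over the root of the F statistic. Genes were called at an adjusted p under 0.05, and in a stricter rule also at a log2 fold change of at least 1 in size. Of 20348 genes, 4605 had no count in any sample and 629 had no symbol. The test was checked on simulated counts with a common dispersion, in which 200 genes differed by folds of 2 or 4. All 200 were recovered, with 9 false calls among 11940 tested genes. Far more genes were called in the real data, so the check cannot speak to the scaling there. Replicates differed by more than sampling noise (chi-square per degree of freedom of at least 2.68), with a typical coefficient of variation of 5.21%. Same-numbered samples did not deviate together (correlations of -0.0480 to 0.0188), so the numbers were not taken as pairs. Standard errors come from the edgeR fit, which takes in the spread between samples, and no interval of counts is given.

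The enzymes and the lists were chosen with earlier results of these data known. The text names the 10 enzymes, a set of further genes whatever their values, up to 3 genes per direction of each other list with the largest called log2 fold change and at least 1 CPM, and the 3 genes nearest to SCD. Outside this rule, the neighbours of FADS2 and single genes of the lists and markers such as SC5D, TM7SF2, APOE and KRT18 were chosen after their values were seen. DESeq2 1.42.0, limma 3.58.1 on log2(TPM + 1) and log2(TPM + 0.1), scaling by total counts, other filters, a replicate block and leaving out each sample were alternatives. Gene positions are from GENCODE 29 (GRCh38). A few genes that this rule selects are not reported here.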

Additional observations from a re-analysis of the deposited data

How the results depend on the processing

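Every fold change of the 10 enzymes kept its sign under 14 alternatives, and 136 of 140 calls held. The exceptions were ELOVL5 with scaling by total counts and in 3 limma fits of TPM. All alternatives drew on these same samples, so they show only how the values depend on the processing. SCD ranged from -1.71 to -1.48 and ELOVL6 from 0.54 to 0.90. With the replicate block 8 enzymes were lower and 2 higher at an edgeR adjusted p under 0.05. The counts over all genes that follow use the stricter rule, with a log2 fold change of at least 1 in size as well. By that rule 1818 genes were called with the block, against 1817 (1152 higher and 665 lower) without it. Scaling by total counts gave 1451 higher and 458 lower. Limma called 1109 genes on log2(TPM + 1), 1151 without a filter, with 266 and 268 lower, and 356 lower on log2(TPM + 0.1). A minimum of 10 counts in every sample left 740 higher, with fewer genes tested. Leaving out 1 library at a time gave 1834 to 1925 calls.

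Of 74 other named genes, 14 lost their call under at least 1 alternative, and 4 changed sign in some. With scaling by total counts, ACACB was 0.090, ACSL1 0.11, STK11 0.025 and the myeloid marker HOXA10 0.011. In limma fits of TPM, ACACB was 0.0065 or 0.0086, ACSL1 0.13, STK11 0.033 or 0.034 and HOXA10 0.049 or 0.050. Without 1 library ACACB ran from -0.16 to 0.0046, the latter without WNK463 sample 2. ABCA1 lost its call in 3 limma fits. The cause was not tested. With 3 samples per group an exact permutation test of a single gene cannot go below p = 0.1, and 80 to 169 counts limit the precision of ELOVL6.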

Other observations

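Lipid genes outside synthesis moved in both directions. Of 22 tested genes of fatty acid oxidation, 10 were higher and 5 lower at an edgeR adjusted p under 0.05, where all tested genes gave 35.5% higher and 35.3% lower. Total-count scaling gave 13 higher and 4 lower, and in the limma fits of TPM 15 were higher and 3 lower. CPT1A, the rate-limiting enzyme of mitochondrial fatty acid entry, was higher, from 344 ± 21.4 to 500 ± 25.9 CPM (SD, n = 3; log2 fold change 0.54), and SLC25A20, the carnitine carrier, from 16.5 to 41.9 CPM (1.35). ECI2 was higher at 1.87 and ACAA1 at 0.68, while HADHA, the alpha subunit of the trifunctional protein, was lower, from 367 to 257 CPM (-0.51), with ECHS1 at -0.60 and ACADS at -0.44. ACADS lost its call in 3 limma fits of TPM.

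Of 4 tested genes of fatty acid uptake and binding, CD36, a fatty acid receptor, was higher, from 66.0 ± 4.89 to 230 ± 6.68 CPM (SD, n = 3; 1.80, edgeR adjusted p = 3.2e-14). FABP5 was lower, from 105 to 60.8 CPM (-0.78), with LIPA at -0.65 and DBI at -0.39. DBI lost its call in 3 limma fits of TPM. CD36 is also expressed by monocytes and macrophages, and the summed macrophage markers were 19.9 to 20.8 CPM with WNK463 against 2.38 to 3.36 CPM in the Control. Of that sum C1QA alone had a mean of 13.1 CPM with WNK463, and the tested marker MARCO was not called (-0.27). The part of the macrophage markers in the CD36 difference was not tested.

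Of 23 tested genes of glycerolipid synthesis and lipid droplets, 10 were lower and 7 higher, against 11 higher with scaling by total counts and 6 lower in the limma fits of TPM with the filter on low values. GPAM, which starts glycerolipid synthesis in mitochondria, was lower at -0.69, HILPDA at -1.05 and LPIN3 at -1.62, and GPAT3 was higher, from 2.98 to 11.9 CPM (2.00). The droplet proteins PLIN4 (1.27) and PLIN2 (0.62, from 18.1 to 27.9 CPM) and the droplet assembly gene BSCL2 (1.04) were higher. In the separate mitochondrial fatty acid synthesis path, 5 of 10 tested genes were lower, among them MECR (-0.998), HSD17B8 (-0.98) and NDUFAB1 (-0.44), and 4 were higher, among them CBR4 (1.04) and LIAS (0.46). The higher count was 2 with DESeq2, without Control sample 1 and without WNK463 sample 2.

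The deposited KEGG annotation was used for counts after the data had been seen. Without the enzymes described here, the fatty acid biosynthesis set had 5 lower and 4 higher genes of 12 tested, with a median log2 fold change of -0.05. The elongation set had 9 lower and 6 higher of 19 (median -0.24), and the set for unsaturated fatty acids 5 lower and 7 higher of 15 (median 0.14).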
